A study of Homo sapiens with 4 samples.

Results

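Untreated U2-OS cells were compared with untreated HOS cells, 2 established human osteosarcoma lines, by 1 expression array each, which are 2 of the 4 arrays of the series. Both cultures were labelled as exposed to 0 μg/mL OGE for 24 h. The other 2 arrays hold the same lines with 600 μg/mL OGE for 24 h and are used here only to see whether a difference between the lines was also present there. What OGE stands for is not spelled out in the labels, and the sources used here do not say whether the untreated cultures received a vehicle. Per the labels, both lines were grown in the same DMEM medium with serum and antibiotics to near confluence, and total RNA was extracted with Trizol. Each line is a single established tumour line and stands for itself only.

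Osteosarcoma is a malignant tumour of bone-forming mesenchymal cells. As background, U2-OS carries wild-type p53, lacks expression of the p16 inhibitor encoded by CDKN2A and maintains its telomeres without telomerase, by recombination. HOS carries mutant p53 and maintains its telomeres with telomerase. Lines of this kind keep mesenchymal and variable osteoblast features, and differ from each other in matrix, growth factor and germline-gene expression.

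A level is the deposited log2 RMA value of a probe set, and a difference is the U2-OS level minus the HOS level, so that 1 unit is a 2-fold difference. For each of 18417 genes, 1 probe set with a single gene symbol was used. A gene was called by size when its difference was at least 1 in either direction and the higher of its levels reached the median of its own array, which was 3.60 for HOS and 3.58 for U2-OS when taken across every probe set. Genes that meet the second condition, 11605 in all, are referred to as genes at the floor. A gene that reaches the floor in only one line must be higher in that line, so counts at the floor are partly fixed by this rule. With 1 array per line no test within the untreated state was possible. The test given is limma for the line effect over all 4 arrays with OGE as a term, which uses both treatment states and has 1 residual degree of freedom before moderation. Its residual is the change of the line difference between the treatment states, in which an effect of OGE on that difference and array error cannot be told apart. A small limma p therefore marks a line difference that was large beside its change with OGE. The labels do not say whether the arrays came from separate cultures, so the limma p-values cover no more than these 4 arrays.

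The array medians were alike, but normalization brings medians together, so they do not show whether an array deviates. Over all probe sets, the untreated lines correlated at 0.963, against 0.980 for HOS without and with OGE and 0.968 for U2-OS without and with OGE. The U2-OS arrays thus correlated little more than the untreated lines did, and whether the untreated U2-OS array is typical of its line cannot be told. Precision is limited throughout by there being 1 array per group.

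Most genes were at similar levels in the lines. Of the genes at the floor, 62.8% differed by 0.5 or less, the median difference was 0.00 and the middle 50% lay between -0.35 and 0.39. By size, 958 genes were higher in U2-OS, 8.26% of the genes at the floor, and 655 were lower, 5.64%. At least 3 log2 units separated 42 of the higher and 43 of the lower genes. The threshold cuts through a dense part of the distribution. Of the called genes 283 lay less than 0.1 above it in size, and 353 genes at the floor missed the call by 0.1 or less. With limma, 163 genes were higher in U2-OS, 0.885% of the genes tested, and 191 were lower, 1.04%, at an adjusted p under 0.05. These counts depended strongly on the settings, from 59 to 966 higher and from 72 to 800 lower genes.

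**Figure D1:**
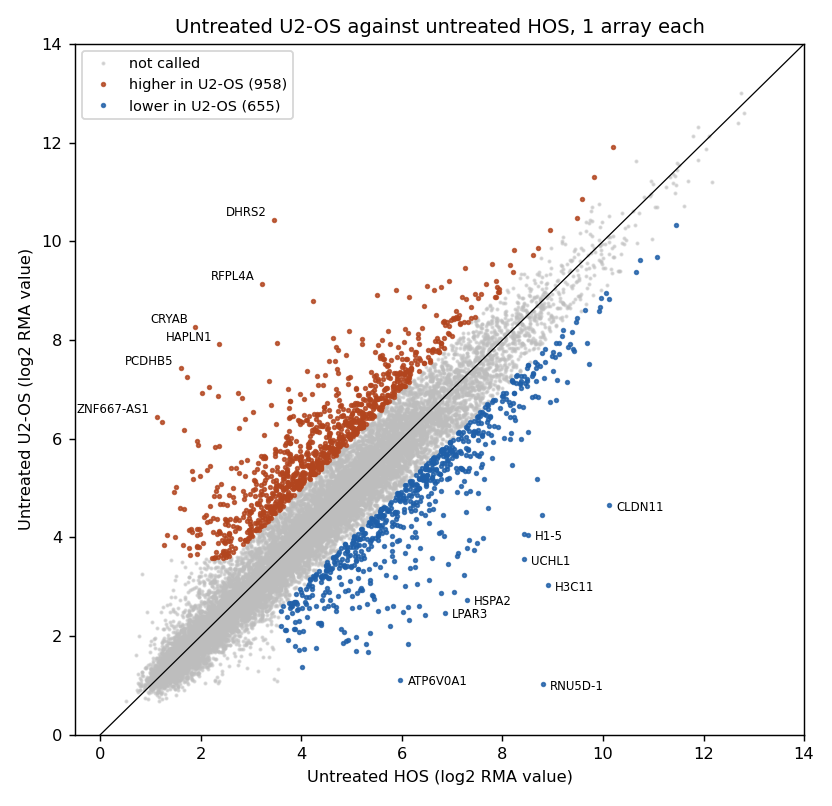
Log2 RMA values of the genes in untreated HOS (x axis) and untreated U2-OS (y axis), 1 array each; each point is a gene, coloured where it was called by size, and the line marks equal levels. The 958 genes higher in U2-OS lie above the line and the 655 lower genes below it, with DHRS2 and RNU5D-1 farthest out.

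The genes with the largest excess in U2-OS were mostly near background in HOS. DHRS2, a short-chain dehydrogenase, was at 3.46 in HOS, under the floor, and 10.44 in U2-OS. CRYAB, a small heat shock protein also known from lens and muscle, was at 1.89 and 8.27. SESN3, a sestrin that restrains mTORC1, was at 1.73 in HOS and 7.26 in U2-OS. All 3 were under the floor in HOS, so their log2 differences depend on signal near background and no fold is given for them.

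Several of the genes highest in U2-OS encode secreted or surface proteins. HAPLN1, the link protein that fixes proteoglycans to hyaluronan, was at 2.37 in HOS and 7.91 in U2-OS. TNFAIP6, a secreted hyaluronan-binding protein, was at 1.93 and 5.96. The chemokine CXCL14 was at 4.24 and 8.79. Unlike the others it was above background in HOS. GPC4, a cell surface heparan sulfate proteoglycan, was at 2.29 and 5.84, and the dopamine receptor DRD1 at 1.95 and 5.87. LRRN1, a leucine-rich repeat membrane protein, was at 1.66 and 6.17. RFPL4A, TSPYL5, GALNT16, the antisense transcript ZNF667-AS1 and the pseudogene NCOR1P1 completed the genes outside the groups described further on, with differences between 4.17 and 5.93. A pseudogene's signal cannot be told apart from that of its parent gene by symbol alone.

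The genes with the largest excess in HOS were of other kinds. CLDN11, a tight junction claudin, was at 10.13 in HOS and 4.65 in U2-OS, a 44.6-fold difference. UCHL1, a ubiquitin hydrolase abundant in neurons, was at 8.43 and 3.56. ATP6V0A1, a membrane subunit of the proton pump that acidifies lysosomes, was at 5.97 in HOS and 1.11 in U2-OS. So CLDN11 kept a level above the U2-OS median in both lines, while ATP6V0A1 was at background in U2-OS. LPAR3, a receptor for lysophosphatidic acid, was at 6.86 and 2.47, and NPPB, the precursor of B-type natriuretic peptide, at 7.61 and 3.99. SLFN11, which arrests stalled replication forks, was at 5.32 and 1.68, and ELOVL2, an elongase of polyunsaturated fatty acids, at 6.46 and 2.43. TMEM88, MAMDC2, FOXR1, SH2D4A and NETO2 differed by between -4.36 and -3.73.

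Of these 20 largest differences in each direction, limma over both treatment states gave the smallest adjusted p, 0.0055, to RNU5D-1, with a difference of -7.79 untreated and -7.90 with OGE. CRYAB, IL18, MAGEB2, H3C11 and ATP6V0A1 had an adjusted p of 0.0117 in limma. LRRN1, TNFAIP6, NCOR1P1, DRD1, IGFBP5 and MAMDC2 had limma adjusted p from 0.110 to 0.226, as their differences were much smaller with OGE, at 1.22, 1.43, 1.73, 0.56, 1.25 and -1.41.

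**Figure D2:**
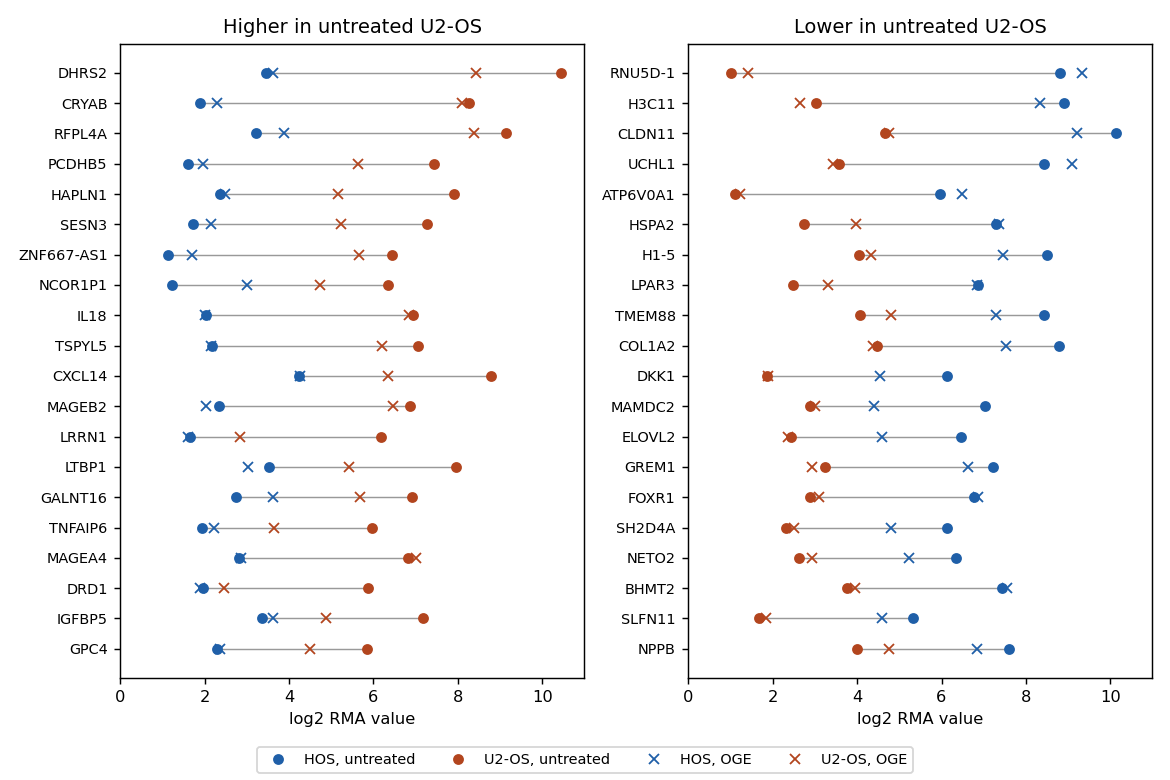
Log2 RMA values of the 20 genes with the largest untreated difference in each direction; circles are untreated and crosses OGE-treated arrays, blue for HOS and orange for U2-OS, 1 array per mark. In every gene shown the U2-OS and HOS marks of a treatment state keep the same order, but for DRD1 and LRRN1 the OGE marks lie close together.

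A stricter class of genes went from the low end of one array to the high end of the other. Below the 25th percentile of genes in HOS and at or above the 75th in U2-OS were 14 genes, 0.076% of all, with a median difference of 4.90. The reverse held for 10 genes, 0.0543%, with a median of -3.93. In the OGE-treated pair all 24 kept their sign, and 12 of the 14 and 10 of the 10 were called by size there as well. Besides genes already given, the first class held F2RL2, a thrombin receptor family member, at 2.36 and 5.86. The second held COCH at 5.71 and 2.56, the kinase DAPK1 at 6.02 and 2.49, the ubiquitin ligase MID1 at 5.52 and 2.51 and the lysosomal PLBD1 at 5.76 and 2.21.

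The start sites of these genes were compared by their CpG content, which the choice of genes did not use. RefSeq promoter windows of GRCh38.p14, from 250 bases before to 50 after the start, were available for 18 of the 24 genes. The windows below belong to the 3 genes of each class with the largest difference and a single window, on the strand of the gene, 5′ to 3′, with each CG in capitals. They show the contrast between CG-poor and CG-rich starts among the most one-sided genes.
PCDHB5, higher in U2-OS, chr5:141134956-141135255, plus strand: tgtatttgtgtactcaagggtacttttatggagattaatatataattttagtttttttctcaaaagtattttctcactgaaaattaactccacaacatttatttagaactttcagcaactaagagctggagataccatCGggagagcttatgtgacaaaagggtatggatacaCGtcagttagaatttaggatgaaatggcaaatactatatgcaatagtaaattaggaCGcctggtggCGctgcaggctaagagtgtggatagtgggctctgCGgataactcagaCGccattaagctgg
HAPLN1, higher in U2-OS, chr5:83720806-83721105, minus strand: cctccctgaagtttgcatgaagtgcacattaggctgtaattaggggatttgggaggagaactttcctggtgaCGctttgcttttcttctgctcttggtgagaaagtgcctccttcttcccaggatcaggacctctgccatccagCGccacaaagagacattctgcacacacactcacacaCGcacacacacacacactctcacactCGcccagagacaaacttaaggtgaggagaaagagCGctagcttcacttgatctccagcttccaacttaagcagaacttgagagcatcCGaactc
SESN3, higher in U2-OS, chr11:95232426-95232725, minus strand: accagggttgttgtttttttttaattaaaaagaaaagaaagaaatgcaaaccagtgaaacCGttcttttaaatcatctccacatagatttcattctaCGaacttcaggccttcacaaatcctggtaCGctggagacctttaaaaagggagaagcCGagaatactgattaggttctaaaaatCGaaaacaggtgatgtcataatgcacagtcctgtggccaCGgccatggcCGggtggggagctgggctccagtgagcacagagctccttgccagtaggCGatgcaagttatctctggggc
ATP6V0A1, higher in HOS, chr17:42458628-42458927, plus strand: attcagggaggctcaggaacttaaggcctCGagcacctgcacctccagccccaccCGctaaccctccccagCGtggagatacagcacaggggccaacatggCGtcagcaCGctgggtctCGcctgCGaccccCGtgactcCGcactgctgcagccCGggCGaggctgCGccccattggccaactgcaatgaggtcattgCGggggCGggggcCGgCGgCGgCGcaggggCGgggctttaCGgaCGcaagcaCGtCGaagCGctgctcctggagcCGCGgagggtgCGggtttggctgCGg
LPAR3, higher in HOS, chr1:84893157-84893456, minus strand: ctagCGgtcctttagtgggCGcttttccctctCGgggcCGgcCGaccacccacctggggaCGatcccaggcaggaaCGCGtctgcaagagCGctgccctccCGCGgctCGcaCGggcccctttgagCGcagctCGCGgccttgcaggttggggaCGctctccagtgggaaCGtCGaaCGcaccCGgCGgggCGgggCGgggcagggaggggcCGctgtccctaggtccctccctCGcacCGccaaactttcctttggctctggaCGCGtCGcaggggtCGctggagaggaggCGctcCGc
DKK1, higher in HOS, chr10:52314031-52314330, plus strand: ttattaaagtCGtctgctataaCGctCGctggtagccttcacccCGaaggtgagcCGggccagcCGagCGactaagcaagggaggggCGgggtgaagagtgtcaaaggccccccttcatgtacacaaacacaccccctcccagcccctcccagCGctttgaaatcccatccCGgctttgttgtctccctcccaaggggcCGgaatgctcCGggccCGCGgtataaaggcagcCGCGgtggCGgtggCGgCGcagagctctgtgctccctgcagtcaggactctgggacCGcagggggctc

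The PCDHB5, HAPLN1 and SESN3 windows held 6, 6 and 8 CG, and those of ATP6V0A1, LPAR3 and DKK1 held 28, 33 and 20. The contrast did not hold for every gene of either class. Among the genes near background in HOS, LRRN1 had 42 CG, GPC4 37, DRD1 31 and MAGEB2 21. Among those near background in U2-OS, the windows of MID1 held a median of 8.5 CG, and PLBD1 had 18. A window counted as CpG-rich when its GC content was at least 50% and its CpG count at least 0.6 of that expected from its bases. By this rule 5 of the 10 genes with a window in the first class and 6 of the 8 in the second were CpG-rich. Over wider groups, 81.9% of genes at the floor had a CpG-rich start, against 75.6% of the genes higher in U2-OS and 87.0% of the lower genes. Of the genes higher by at least 3 units, 30 had a window and 46.7% were CpG-rich, against 82.8% of 29 genes lower by at least 3. These shares are descriptions, and methylation was not measured.

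Of 35 gene lists, those of cell types were taken first, to set the lines against their label. The counts of each list stand beside 8.26% higher and 5.64% lower over all genes at the floor. In a short list a few called genes can lie near those shares. Of 18 measured osteoblast genes, 8 were at the floor, 0 were higher in U2-OS and 2 lower. Their median difference was -0.47 beside 0.00 over all genes at the floor, and -0.10 over all 18 measured. The type I collagen chain COL1A1, the main protein of bone matrix, was at 10.01 in HOS and 9.46 in U2-OS. Its partner chain COL1A2 was at 8.78 in HOS and 4.46 in U2-OS, so the chains of this protein differed unequally between the lines. With OGE the COL1A2 difference was -3.15, and its limma adjusted p was 0.0355. ALPL, the phosphatase of mineralising osteoblasts, was at 5.08 and 3.53, with a limma adjusted p of 0.0802 for -1.55 untreated and -0.89 with OGE. RUNX2, the master regulator of the osteoblast lineage, was level at 4.54 and 4.60. SP7, which acts after RUNX2, was at 4.28 and 3.98. The late markers SPP1, IBSP, DMP1 and MEPE were under the floor in both lines, as was PHEX.

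Mesenchymal genes were present in both lines. Vimentin, VIM, was at 8.78 in HOS and 9.28 in U2-OS. Of 15 members, 12 were at the floor, 4 were higher and 2 lower in U2-OS. The cadherins CDH2 and CDH11 were higher by 1.15 and 1.41, PDGFRA by 1.55 and THY1 by 1.12, whereas the ectonucleotidase NT5E and the regulator TWIST2 differed by -1.81 and -1.41. None of these 6 was called by size with OGE, where the differences lay between -0.67 and 0.48. Of 12 chondrocyte genes, HAPLN1 and COL11A1 were higher in U2-OS, and SOX9, the regulator of cartilage, was at 5.72 and 6.54.

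Smooth muscle and contractile genes were mostly lower in U2-OS. Of 12 members at the floor, 11 had a negative difference, beside a median of -0.50, and 3 were called. TAGLN, which binds actin, was at 8.68 in HOS and 5.18 in U2-OS, and the actin ACTG2 at 7.29 and 3.79, each a difference of -3.50. MYL9 missed the call after another normalization, at -0.94 with quantile normalization. Limma gave TAGLN an adjusted p of 0.0346, with -2.65 in the OGE-treated pair, and ACTG2 0.0258, with -3.09.

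Immune and endothelial markers were mostly under the floor, whereas some epithelial and neuronal markers were high. Of 8 immune genes 2 were at the floor, CD68 and NKG7, and of 9 endothelial genes 1, CLDN5, and none of the 17 was called. PTPRC was at 1.30 and 1.28, and PECAM1 at 2.33 and 1.92. Of 13 epithelial genes 7 were at the floor and 3 were lower in U2-OS. The keratins KRT8 and KRT18 were high in both lines, KRT18 at 9.69 and 9.05. KRT8 was at 9.38 and 8.16, CLDN3 at 6.25 and 5.07 and EPCAM at 4.65 and 3.50, while CDH1, the epithelial cadherin, was under the floor in both. EPCAM differed by -0.89 on its other probe set. Of 13 neuronal genes 4 were at the floor, and all 4 were called. UCHL1 and the filament gene INA were lower in U2-OS, INA at 5.83 and 2.62. The filament gene NEFL, at 3.76 and 5.94, and the enolase ENO2, at 5.75 and 7.38, were higher. The part of any other cell type in the differences was not tested.

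The extracellular matrix differed in its components rather than in one direction. Of 27 matrix glycoprotein and proteoglycan genes at the floor, 6 were higher and 3 lower in U2-OS, with a median of 0.40, or 0.00 over all 31 measured. MFAP2, a microfibril protein, was at 4.56 in HOS and 7.58 in U2-OS. Tenascin C, TNC, was at 4.73 and 7.34, and the thrombospondin THBS1 at 7.25 and 9.47. LAMA4 and EFEMP1 were higher by 2.35 and 1.85. Opposite to these, the fibrillin FBN1 was at 6.17 in HOS and 4.59 in U2-OS and the small proteoglycan BGN at 5.53 and 4.09. Fibronectin, FN1, was at 8.33 and 8.09. Limma gave MFAP2, TNC, FBN1 and BGN adjusted p from 0.0258 to 0.0434, and their differences with OGE were 2.77, 2.67, -1.58 and -1.41. Among 17 collagen genes at the floor, only COL1A2 was lower by size, and COL11A1 and COL6A3 were higher by 1.42 and 1.13, with a list median of -0.03, which was 0.02 after cyclic loess.

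Integrins, the receptors that hold cells to the matrix, had a median difference of 1.18 over 12 genes at the floor. By size, 6 were higher in U2-OS and 1 was lower, beside 8.26% and 5.64% over all genes at the floor. ITGB8, ITGA2 and ITGA7 were under the floor in HOS and had to be higher in U2-OS to reach it. ITGB1, the β chain shared by most of these receptors, was at 8.24 in HOS and 9.83 in U2-OS. ITGB8 was at 1.67 and 4.57, ITGA2 at 2.85 and 4.77, ITGB5 at 5.97 and 7.36, ITGA5, the fibronectin receptor chain, at 5.96 and 7.34, and ITGA7 at 3.40 and 4.80. ITGA4 was the exception, at 5.80 in HOS and 3.63 in U2-OS. Only ITGA2 and ITGB5 passed limma, with adjusted p of 0.0382 and 0.0458 and differences with OGE of 1.86 and 1.34. For ITGB8, ITGB1 and ITGA7 the OGE-treated pair differed by 0.83, 0.50 and 0.00. Over all measured integrins the median was 0.71.

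Among matrix proteases and their inhibitors, more genes were higher than lower, with 5 of 12 genes at the floor higher and 1 lower, and a median of 0.75, or 0.35 over all 19 measured. MMP2, which cleaves denatured collagen, was at 4.68 in HOS and 7.85 in U2-OS, and MMP14, the membrane protease that activates it, at 4.73 and 6.56. MMP16 was at 3.32 and 5.23, a difference of 1.91, and on its other probe set the difference was 1.42. TIMP2 and SERPINE2, which inhibit proteases, were higher by 1.35 and 1.34. With OGE only MMP2 and MMP16 of these 5 were called again, with 2.55 and 1.17, and MMP14, TIMP2 and SERPINE2 differed by 0.85, 0.16 and -0.11. MMP1, MMP3, MMP7, MMP10 and MMP13 were under the floor in both untreated lines. With OGE the MMP3 difference was 7.88.

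Among the signalling lists, TGF-β and BMP genes had the highest median difference. TGF-β and BMP ligands bind paired serine-threonine kinase receptors, signal through SMAD proteins and induce the ID genes and the inhibitors SMAD6 and SMAD7. Of 26 members at the floor, 14 were higher in U2-OS and 1 was lower, and the median was 1.11, or 1.01 over all 28 measured. Over all genes at the floor 8.26% were higher and 5.64% lower. Of the 14, 10 were also called in the OGE-treated pair. Parts of this pattern were known from these data when the list was written, so the count is no independent support.

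Among ligands and the proteins that store them, TGFB2 was at 5.21 in HOS and 7.91 in U2-OS, LTBP1 at 3.52 and 7.95, and LTBP2 at 4.42 and 6.26. TGFB3, BMP4 and the activin chain INHBA were higher by 1.23, 1.14 and 2.20. TGFB1 was at 5.67 and 6.62, just short of the call. Among receptors, TGFBR2 was at 5.72 and 7.32 and BMPR2 at 4.15 and 5.91, whereas TGFBR1 was level at 6.49 and 6.68. Of the target genes, ID1 was at 4.47 and 7.30, ID3 at 4.92 and 7.10, ID4 at 3.64 and 4.96 and SMAD7 at 3.74 and 5.25. The secreted BMP antagonists NOG and GREM1 differed in opposite directions. NOG was at 4.71 in HOS and 7.41 in U2-OS, and GREM1 at 7.23 in HOS and 3.24 in U2-OS. Limma gave NOG an adjusted p of 0.0265, with 2.94 in the OGE-treated pair, and GREM1 0.0179, with -3.68.

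WNT genes showed no common direction, with 4 higher and 3 lower of 24 at the floor, beside 8.26% and 5.64% over all genes there. Their median was 0.06, or -0.02 over all 29 measured. DKK1, a secreted WNT inhibitor, was at 6.13 in HOS and 1.85 in U2-OS. LEF1, a nuclear effector of the pathway, was at 2.87 and 5.25, and LGR5 at 2.32 and 4.37. The coreceptors LRP5 and LRP6 differed in opposite directions, by -1.16 and 1.42. The ligand WNT5A differed by -1.17. Limma gave DKK1 and LEF1 adjusted p of 0.0434 and 0.0399, with differences of -2.66 and 1.90 in the OGE-treated pair.

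Within the insulin-like growth factor axis, binding proteins differed in both directions. Of 14 genes of this list at the floor, 2 were higher and 4 lower, beside 8.26% and 5.64% over all genes there. IGFBP5 was at 3.36 in HOS and 7.17 in U2-OS, while IGFBP2, at 6.60 and 5.20, and IGFBP4, at 7.02 and 5.97, were lower. IGFBP4 fell just short of the call with cyclic loess, at -0.996. With OGE the IGFBP5, IGFBP2 and IGFBP4 differences were 1.25, -1.29 and -1.15, with limma adjusted p of 0.121, 0.0466 and 0.0615. The RNA-binding proteins IGF2BP1 and IGF2BP3, which are mainly embryonic, were at 6.84 and 4.03 and at 5.40 and 2.84. Their relative IGF2BP2 was level at 5.49 and 5.53. The receptor IGF1R was higher by 1.04, but by 0.64 with the mean of its probe sets, which ends the call. Among 20 receptor tyrosine kinase genes at the floor, MET was lower, at 5.91 and 4.25, EGFR was at 4.50 and 3.54, and AXL was level at 8.04 and 8.10.

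Targets of p53 were more often higher than lower in U2-OS. Of 22 members at the floor 6 were higher, 1 was lower and the median was 0.27. The shares over all genes at the floor were 8.26% higher and 5.64% lower. The 6 higher genes were also called in the OGE-treated pair. TP53I3, an oxidoreductase, was at 4.46 in HOS and 6.56 in U2-OS, and RRM2B, the p53-induced ribonucleotide reductase subunit, at 4.17 and 5.95. PPM1D, the phosphatase that limits p53, was at 6.19 and 7.81. TP53INP1, DDB2 and ZMAT3 were higher by 1.39, 1.12 and 1.10. Limma gave TP53I3, RRM2B and PPM1D adjusted p of 0.0391, 0.0391 and 0.0434, with 1.80, 1.82 and 1.38 in the OGE-treated pair, and the other 3 from 0.0567 to 0.0583. Not every target followed. CDKN1A, the best known target, was at 5.92 and 6.45, MDM2, the ligase that degrades p53, at 5.77 and 6.16, BAX at 7.10 and 7.24, and BBC3 at 6.01 and 5.97. CMBL was lower by size, at 6.60 and 5.52. The gene of p53 itself was not analysed here.

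Control of the G1 phase differed in its cyclins. CCND2, a D-type cyclin, was at 5.51 in HOS and 8.91 in U2-OS, while CCND1 was level at 7.56 and 7.25. Cyclin E1, CCNE1, was at 5.46 and 7.76. SKP2, which marks the inhibitor CDKN1B for degradation, was at 9.68 and 7.94, and CDKN1B at 4.97 and 6.26. MTAP, which lies beside CDKN2A and salvages methionine, was under the floor in HOS, at 2.38, and at 4.09 in U2-OS. CDKN2A was under the floor in both, at 2.66 and 2.39. RB1 was at 5.12 in both lines and CDK4 at 8.68 in both. With OGE, the CCND2 difference was 3.33 and limma gave an adjusted p of 0.0197, and for SKP2 and MTAP the differences were -1.38 and 1.58 with limma adjusted p of 0.0439 and 0.0415. CCNE1, CDKN1B and RBL2 were not called there, with 0.94, 0.41 and 0.13.

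Genes of cell division were close. Of 21 mitotic genes at the floor 3 were higher and 1 lower, with a median of 0.28. Of 21 replication genes 1 was higher, RRM2, with a median of 0.03. Among all genes at the floor 8.26% were higher and 5.64% lower. AURKB, a kinase of chromosome segregation, was at 8.35 and 7.13, and TOP2A at 6.61 and 7.49.

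Genes of telomere maintenance did not separate the lines by size apart from NOP10 and NHP2, parts of the particle that holds the telomerase RNA, which differed by -1.58 and -1.28. That is 0 higher and 2 lower of 17 at the floor, beside 8.26% and 5.64% over all genes there. The telomerase RNA TERC was at 6.01 in HOS and 5.15 in U2-OS, short of the call, and at 6.46 and 4.96 with OGE. The catalytic subunit TERT was at 5.10 and 4.72. The floor is only the array median, so a level above it does not show that TERT or TERC was expressed in a line. ATRX, a chromatin remodeller, was under the floor in both, at 3.02 and 2.99.

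Cancer-testis antigens are germline genes that tumours can express. Of 29 measured members 10 were at the floor, and 7 of them were higher in U2-OS and 0 lower. These shares were 8.26% and 5.64% over all genes at the floor. The median difference of the 10 was 1.90. MAGEB2 and MAGEA4 reached the floor through U2-OS alone, so the count supports nothing by itself. Over all 29 the median was 0.17, as most were near background in both lines. MAGEB2 was at 2.34 in HOS and 6.86 in U2-OS, and MAGEA4 at 2.82 and 6.83. MAGEA1 was at 4.25 and 6.51, MAGEA8 at 5.65 and 7.61 and PAGE2B at 4.34 and 7.09. PRAME was high in both, at 8.95 and 10.24, and CTAG2 was level at 6.97 and 7.13. MAGE and PAGE genes have close copies, so a probe set can take signal from a relative, and 16 list members were not in the gene table. Some of them are read by probe sets with several symbols. Among those called by size, that of MAGEA3 and MAGEA6 was higher by 1.79 and that of XAGE1A and XAGE1B by 2.34, and none for members of this list was lower.

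The clustered β-protocadherins, cell surface molecules of neuronal identity, included several genes with signal in U2-OS only. In the list of protocadherins and cadherins, 9 of 11 genes at the floor were higher in U2-OS and 0 lower, with a median of 1.99, or 0.83 over all 28 measured. Genes that reach the floor through U2-OS alone had to be higher there, so the count at the floor supports nothing by itself. PCDHB5 was at 1.60 in HOS and 7.43 in U2-OS, PCDHB8 at 1.59 and 4.59, PCDHB10 at 1.33 and 4.04, PCDHB11 at 2.64 and 5.01 and PCDHB16 at 2.18 and 4.33. PCDHB4, PCDHB7, PCDHB13 and PCDHB15 of the same cluster were under the floor in both lines. With OGE, the difference was 3.69 for PCDHB5, which passed limma with an adjusted p of 0.0417, and from 0.21 to 1.30 for PCDHB8, PCDHB10, PCDHB11 and PCDHB16. These genes are similar in sequence, and signal shared between them was not tested.

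HOX genes, which record position along the body, were alike, with 1 higher and 2 lower of 21 at the floor and a median of -0.15. These counts stand beside 8.26% higher and 5.64% lower over all genes at the floor. HOXB2 was at 6.22 in HOS and 4.66 in U2-OS. Among imprinted genes, MEST was at 6.78 and 4.10 and PEG10 at 4.99 and 3.40, while PLAGL1 was at 3.18 and 4.75. In that list 3 genes were higher and 2 lower, and SGCE, which neighbours PEG10, differed the other way, by 1.25.

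**Figure D3:**
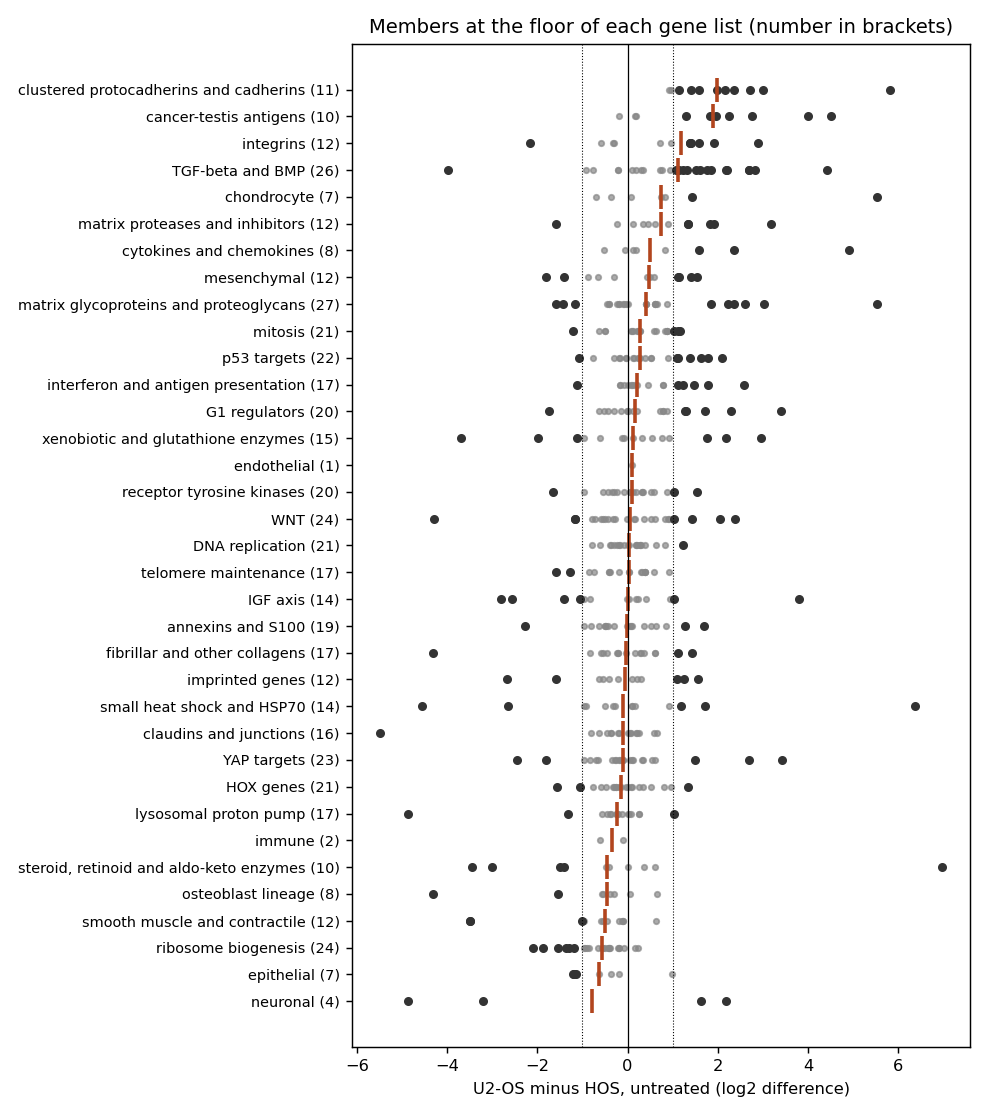
U2-OS minus HOS differences (log2, untreated) of the members at the floor of each of 35 gene lists, in the order of the list medians; grey points are members, black points are called by size, the orange bar is the median and dotted lines mark 1 and -1. Protocadherins and cadherins, cancer-testis antigens, integrins and TGF-β and BMP genes have medians above 1 among members at the floor, but over all measured members these are 0.83, 0.17, 0.71 and 1.01.

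Among cytokines, IL18, an inflammasome cytokine, was at 2.02 in HOS and 6.93 in U2-OS, LIF, of the interleukin 6 family, at 3.27 and 5.63, and CCL2, which attracts monocytes, at 3.11 and 4.69. These 3 of 8 at the floor were higher and 0 were lower. All 3 were under the floor in HOS and had to be higher in U2-OS to reach it, so this count supports nothing by itself. Limma gave them adjusted p from 0.0117 to 0.0434, with 4.84, 1.96 and 2.21 in the OGE-treated pair. Of 17 genes of interferon response and antigen presentation at the floor, 5 were higher and 1 lower. IFI44 and IFI16 were under the floor in HOS and had to be higher in U2-OS to reach it. The list median was 0.22 at the floor and 0.10 over all 28 measured. The shares over all genes at the floor were 8.26% and 5.64%. The immunoproteasome subunits PSMB8 and PSMB9 were at 4.99 and 6.47 and at 4.52 and 6.30, IFI44 was at 1.27 and 3.85, and B2M was level at 8.27 and 8.42. None of the 5 passed limma, with adjusted p from 0.0673 to 0.159 and differences with OGE from 0.46 to 1.01. CGAS, a sensor of cytosolic DNA, was lower, at 6.18 and 5.06.

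Chaperone genes differed in both directions. Beside CRYAB, HSPB1 was at 10.19 in HOS and 11.91 in U2-OS, while HSPA2, an HSP70 known from testis, was at 7.29 and 2.73 and HSPA4L at 4.79 and 2.14. The constitutive HSPA8 was at 12.16 and 11.20, and HSPA13 was higher by 1.18. Probe sets shared by HSPA1A and HSPA1B, outside the gene table, were higher by 1.47 to 1.55, whereas that shared by HSPA6 and HSPA7 differed by -1.03. In retinoid and steroid metabolism, DHRS2 was the only gene higher of 10 at the floor, and 4 were lower. CYP1B1 was at 5.29 and 1.85, ALDH1A2, which makes retinoic acid, at 6.59 and 3.59, and DHRS3 and HSD17B2 differed by -1.49 and -1.40. Of glutathione enzymes, GSTT1 was at 4.31 in HOS and 7.28 in U2-OS, and GSTM1 at 5.91 and 3.92. Both genes are absent by deletion in some people, and the genotypes were not examined here. BHMT2, a methyltransferase of homocysteine, was at 7.44 and 3.75. Of the proton pump list, ATP6V0A1 stood alone in size. ATP6V0E1 differed by -1.32, ATP6AP2 by 1.03 and the related subunit ATP6V0A2 by -0.23.

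Among YAP targets, which respond to cell shape and tension, ANKRD1 was at 4.62 in HOS and 8.05 in U2-OS, while MYOF was at 7.63 and 5.18, and CCN1 and CCN2 differed by -0.19 and 0.61. Of 19 annexin and S100 genes at the floor, ANXA4 and ANXA3 were higher by 1.70 and 1.28, and S100A3 was at 5.21 and 2.93. In the junction list CLDN11 was the 1 gene called of 16 at the floor. GJA1, the main gap junction protein of osteoblasts, was level at 6.18 and 6.23.

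Most genes of ribosome biogenesis had a lower level in U2-OS. All 24 measured members were at the floor, 22 had a negative difference, 6 were lower and 0 higher by size, and the median was -0.56. Among all genes at the floor 5.64% were lower and 8.26% higher by size. NOP16 was at 7.24 in HOS and 5.14 in U2-OS, MYBBP1A at 7.82 and 5.94, RRS1 at 6.65 and 5.10, NOLC1 at 7.11 and 5.74 and nucleolin, NCL, at 9.95 and 8.66. In the OGE-treated pair the median was -0.27, and NOP16 and RRS1 differed by -0.20 and 0.11. Limma gave MYBBP1A and NCL adjusted p of 0.038 and 0.0465, with differences of -1.93 and -1.46 there.

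Small nucleolar RNAs, which guide the modification of ribosomal RNA, were also more often lower than higher in U2-OS. Of 87 at the floor, 1 was higher and 30 were lower, 1.15% and 34.5%, with a median of -0.72. Those shares were 8.26% and 5.64% over all genes at the floor. SNORD14C was at 6.92 in HOS and 3.46 in U2-OS, SNORD14E at 4.30 and 1.76 and SNORD49A at 6.07 and 3.01. With OGE the lines were level for SNORD14C, at 7.50 and 7.53, and for SNORD14E, at 5.42 and 5.35, whereas SNORD49A still differed by -2.01.

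RNU5D-1, a copy of the U5 RNA of the spliceosome, was at 8.81 in HOS and 1.02 in U2-OS. Its level in U2-OS is near the bottom of the array, so neither the exact size of the difference nor its rank can be read from it. Other copies did not follow it. RNU5E-1 was at 7.19 and 8.87, and RNU5A-1, RNU5B-1 and RNU5F-1 were under the floor in both. The copies are nearly identical, so their signals may be shared, and this value is uncertain.

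Histone genes differed in both directions, a group formed here by symbol after values had been seen. Of 45 at the floor, 10 were higher and 9 lower in U2-OS, beside 8.26% and 5.64% over all genes at the floor. H3C11 was at 8.90 in HOS and 3.03 in U2-OS. Linker histone H1-5 was at 8.50 and 4.05, H3C12 at 6.12 and 2.59 and H4C13 at 6.73 and 4.09. These 4 neighbour each other on chromosome 6. Opposite to them, H1-1 was at 6.93 and 9.20, H3C1 at 4.11 and 6.37 and H2AC11 at 5.22 and 6.81. In the OGE-treated pair 7 of the 9 lower genes were called again but only 2 of the 10 higher ones. Histone genes of a class are near-identical, so the copy that carries a signal is uncertain.

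Of 173 microRNA genes 45 were at the floor and 1 was called, beside 13.9% called over all genes at the floor. The probe set of MIR21, whose product is abundant in many tumours, was at 4.12 in HOS and 7.37 in U2-OS, and at 4.77 and 5.31 with OGE. It was not called with OGE, where the difference was 0.54, and its limma adjusted p was 0.214. Which transcript of the gene the probe set reads was not tested, and the mature strand was not measured separately. The mature strand, from RefSeq on GRCh38.p14 at chr17:59841273-59841294, plus strand, is shown with its seed, bases 2 to 8, in capitals. MIR21 was chosen as the only microRNA gene called by size in the untreated lines.
hsa-miR-21-5p: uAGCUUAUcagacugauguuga

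The OGE-treated pair gave a second reading of each line difference on arrays that the choice of genes did not use, under another condition. Of the 958 genes higher in untreated U2-OS, 880 kept their sign, 91.9%, and 332 were called by size again, 34.7%. Of the 655 lower genes, 618 kept their sign, 94.4%, and 351 were called, 53.6%. In that pair 4.89% of the genes at its floor were higher by size in U2-OS and 6.24% lower. Median differences went from 1.37 to 0.76 in the higher and from -1.34 to -1.08 in the lower genes. The genes had been chosen for large untreated values.

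Larger differences were called again more often. This order is partly fixed by the rule, as the same threshold of 1 was used and a difference just above it is lost with a small decrease. Among genes with differences of 1 to 1.5, 21.0% of the higher and 39.8% of the lower genes were called again. Among those with 3 or more, 33 of 42 higher and 42 of 43 lower genes were called again, and the remaining lower gene was SNORD14C. By level, 19.6% of the higher genes whose U2-OS value was under 5 were called again, and 51.4% of those at 7 or above. The part that OGE itself plays in the smaller differences cannot be told apart from array error, as each state has 1 array per line.

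A few genes differed in opposite directions in the treatment states. The glycolytic enzyme HK2 was at 7.52 in HOS and 4.90 in U2-OS without OGE, and at 7.86 and 9.31 with it. ADM, a vasodilator peptide, was at 7.09 and 4.92, and at 7.72 and 9.68. GEM, NIPAL4 and the antisense RNA THUMPD3-AS1 did likewise, and no gene higher in untreated U2-OS was called lower with OGE. PDK1 and BNIP3, which like HK2 and ADM are known hypoxia-induced genes, differed by -1.34 and -1.66 untreated and by 0.75 and 0.50 with OGE. ANKRD1 and STC2, a secreted glycoprotein, differed more with OGE, by 5.08 and -4.84, than without, by 3.43 and -3.25.

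**Figure D4:**
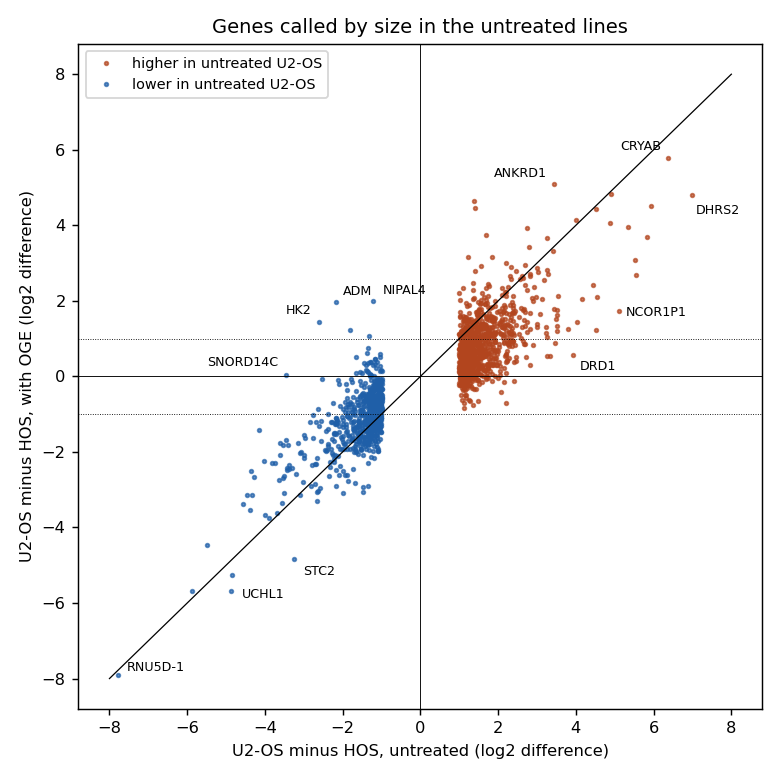
U2-OS minus HOS difference without OGE (x axis) and with OGE (y axis), both log2, for the genes called by size in the untreated lines, 1 array per line and state; the diagonal marks equal differences and dotted lines mark 1 and -1. Most points keep their sign, the lower genes lie nearer the diagonal than the higher ones, and HK2, ADM and NIPAL4 lie in the opposite quadrant.

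A second probe set of the same gene gave another reading within the untreated arrays. After 26 probe sets that repeated values within 0.05 on all arrays had been left out, 67 other probe sets of called genes remained. Of 29 for higher genes, 25 had the same sign and 13 passed 2-fold. Of 38 for lower genes, 36 had the same sign and 22 passed it. Beside these, of 741 other probe sets of genes not called, 328 had a positive sign and 18 were higher by at least 2-fold. Near copies that differed by more than 0.05 on any array were kept, so not all 67 are separate readings. The other RFPL4A probe set differed by 6.16 and that of the G protein subunit GNAQ by -2.59, against 5.93 and -3.43 on those used. Both RFPL4A probe sets were at 9.14 in U2-OS and under the floor in HOS, and signal shared between them was not tested. For GNAI2 the other probe set differed by -0.05, against 1.09.

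Called genes were spread unevenly over the chromosomes. On chromosome 22, 39 genes were higher in U2-OS and 2 lower, 11.9% and 0.608% of 329 genes at the floor, and the median difference of the chromosome was 0.21. On chromosome 4, 16.2% were higher and 4.64% lower, with a median of 0.20. Chromosome 13 had the lowest median, -0.25, with 3.91% higher and 5.59% lower, and chromosome 6 the largest share of lower genes, 10.3%. With OGE the medians were 0.18 for chromosome 22, 0.02 for chromosome 4, -0.23 for chromosome 13 and -0.16 for chromosome 6, so that of chromosome 4 was not repeated. Copy number was not measured.

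**Figure D5:**
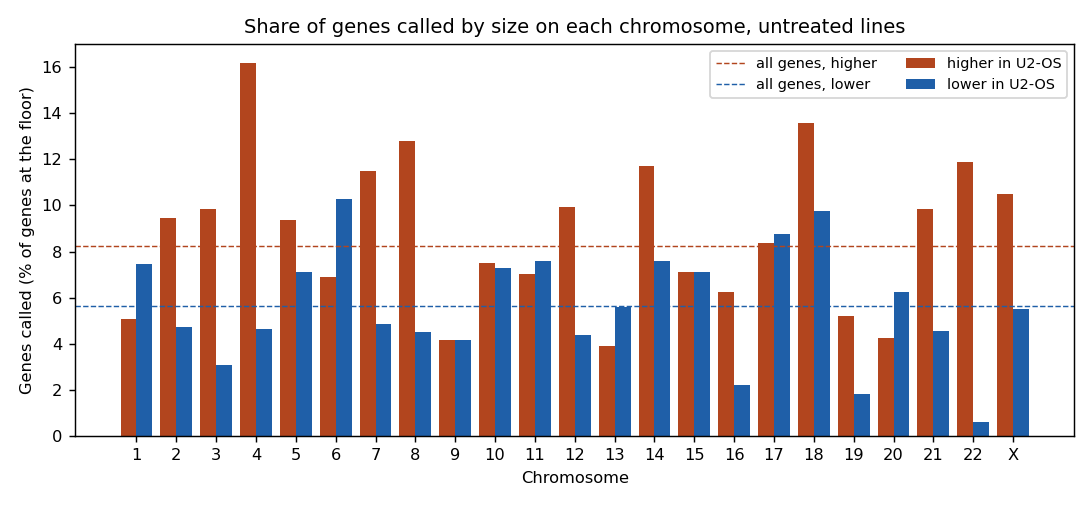
Share of genes at the floor called higher (orange) or lower (blue) in untreated U2-OS on each chromosome other than Y, in percent; dashed lines are the shares over all genes, 8.26% and 5.64%. Chromosome 22 has almost no lower genes and chromosome 4 the largest share of higher genes.

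For 225 of the 1609 called genes with a next measured gene on the chromosome, that gene was also called, beside 8.77% called among all genes in chromosome order. Of the 1078 whose next gene was at the floor it was 20.9%, beside 13.9% of all genes at the floor. In 179 of these 225 cases, 79.6%, both genes were called in the same direction, where the split of called genes alone gives 51.8%. In all, 24 runs of at least 3 genes were found, 14 higher and 10 lower. The longest held 5 genes. On chromosome 6 these were the histone genes H2BC11, H2AC11, H2BC12, H4C9 and H2AC12, higher by a median of 1.31 untreated and 0.29 with OGE. On chromosome 14 they were TNFAIP2, EIF5, SNORA28, MARK3 and CKB, lower by medians of -1.33 and -1.28. Chromosome 17 held runs in both directions. C1QBP, DHX33, DERL2 and MIS12 were lower, with medians of -1.34 and -1.41, as were ELAC2, HS3ST3A1, COX10 and HS3ST3B1, with -1.57 and -1.59. APPBP2, PPM1D and BCAS3 were higher, with 1.62 and 1.38. On chromosome 22, ASPHD2, HPS4, SRRD and TPST2 were higher, with 1.54 and 1.29, and on chromosome 10 ITGB1, NRP1 and PARD3, with 1.55 and 1.01. Overlapping genes and repeated copies share signal, and this part in the runs was not tested.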

How the data were processed

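Total RNA of HOS and U2-OS cells with 0 or 600 μg/mL OGE for 24 h was hybridised to 4 whole-transcript arrays, 1 per group. The deposited values are RMA values on a log2 scale, RMA being named in the submitters' processing notes, and the log2 scale was read from the range of the values. The RMA software version and the genome build of the probe sets are not given in the sources used here. Of 33297 probe sets, 19460 had a single symbol in the platform annotation, 1754 several and 12083 none. Of the 19460, 19429 were matched to RefSeq by gene ID and 31 kept their symbol. Per gene, the probe set that was brightest on average across the 4 arrays was taken, which left 18417 genes, 769 of them with more than 1 probe set.

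The line effect was fitted with limma 3.58.1 in R 4.3.3 on all genes, with Benjamini-Hochberg adjustment over all of them. On simulated data of 18417 genes for this comparison, limma recovered 2% of genes changed by 1 log2 unit and 58% of those changed by 2, with 9 of 18217 unchanged genes called. A difference of at least 1 between the simulated untreated arrays, without the floor, recovered 50% and 99%, with 469 unchanged genes past it. The simulated noise came from limma's variance estimate, which rests on the change of the line difference with OGE. So 469 is no rate of false calls for the genes called by size. Other normalizations, floors, fold thresholds, probe set rules and limma settings were tried.

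Named were the 20 largest differences per direction, up to 6 members with the largest difference of each list, genes with opposite or strongly changed differences with OGE, genes of runs of neighbours and a set of landmark genes. Other genes named were chosen after their values had been seen. The members and the 35 lists were chosen with earlier results of these data known. Symbols absent from the gene table were not analysed here, apart from the probe sets with several symbols that are given above.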

Additional observations from a re-analysis of the deposited data

Results flagged for a closer look

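The line difference pointed in opposite directions without and with OGE for 5 genes, each past 2-fold in both states, and whether these differences themselves differ was not tested, as each state has 1 array per line. U2-OS minus HOS was -2.62 without and 1.45 with OGE for HK2, and -2.17 and 1.96 for ADM. It was -1.80 and 1.22 for GEM, a small GTPase, and -1.33 and 1.07 for THUMPD3-AS1. For NIPAL4, a magnesium transporter family member, it was -1.21 and 1.99. In these 5 genes the U2-OS level was the one that differed most between the states, for example 3.19 and 5.83 for NIPAL4, against 4.40 and 3.84 in HOS.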

How the results depend on the processing

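The count by size followed the threshold and floor. At 1.5-fold U2-OS had 2024 higher and 1638 lower genes, at 3-fold 334 and 209, and with the floor at the 75th percentile 631 were higher. Without a floor, with quantile or cyclic loess normalization and with other probe set rules, the counts stayed within 1.5 times of those reported, and the share of called genes that were higher ranged from 55.3% to 64.0% over all settings. Limma's counts were less stable. Higher and lower genes numbered 966 and 800 after quantile normalization, 728 and 598 after cyclic loess, 59 and 72 without the OGE term, 640 and 669 with trend and robust moderation, and 351 and 398 among genes at or above the median level. At an unadjusted p under 0.05 limma gave 3816 genes. With the 10th percentile as the lower bound, 4 genes were near background in HOS and 2 in U2-OS. The sign of 7 of the 35 list medians, all small, changed under an alternative. Over all measured members these were endothelial from 0.11 to -0.15, imprinted from -0.05 to 0.09, heat shock from -0.09 to 0.02, WNT from 0.06 to -0.02 and the IGF axis from 0.015 to -0.035. With cyclic loess they were collagens from -0.03 to 0.016 and annexins and S100 from -0.02 to 0.012. Of the named genes IGF1R, IGFBP4 and MYL9 lost their call under an alternative. The causes were not tested. No paired analysis within the untreated state was possible because each group had 1 array. The OGE term in limma already compares the lines within each treatment state. Array number limits every value, and no array could be left out of the untreated comparison.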

Other observations

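Probe sets outside the gene table also differed between the untreated lines. Of 1118 probe sets with several symbols at the floor, 93 were higher in U2-OS and 54 lower. Of these, 48 and 27 were also called with OGE. Of 4391 probe sets without a symbol at the floor, 174 were higher and 439 lower, and 46 and 166 were also called with OGE. Among genes at the floor, 8.26% were higher and 5.64% lower by size. Probe sets with several symbols were near these shares, whereas those without a symbol were more often lower than higher. Some probe sets with several symbols repeat each other's values, so these counts are not of separate transcripts.

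Genes with ZNF symbols, most of them zinc finger transcription factors, were called higher in U2-OS in 19 of 232 at the floor, 8.19%, and lower in 3, 1.29%, beside 8.26% and 5.64% over all genes at the floor. Their median difference was 0.18. Genes of ribosomal proteins, by their RPL and RPS symbols, were higher in 1 and lower in 8 of 86, 1.16% and 9.30%, with a median of -0.32. Long non-coding RNAs were higher in 20 and lower in 9 of 208, 9.62% and 4.33%, close to the shares over all genes.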
